A study of Mus musculus with 21 samples.

Results

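The 10 genes described here are a panel associated with pluripotency, followed through cultures differentiated from mouse embryonic stem cells and through sorted cells of the embryo. They are Pou5f1, Nanog, Zfp42, Utf1, Dppa5a, Esrrb, Klf4, Tfcp2l1, Dnmt3l and Dnmt3b, a list chosen by gene symbol and found in full among the 23983 genes of the expression table. The table held 9 RNA libraries, 1 per condition: 6 from embryos and 3 from cultures. Values are FPKM, a level per transcript length and sequencing depth, and with 1 library per condition no difference below has a replicate check or a test. The table gave no depth.

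The embryos came from F1G4 (C57BL/6N x SV129) embryonic stem cells. The labels name tetraploid complementation as the way they were made, whereas the study's text describes diploid morula aggregation for this reporter line. These cells carried T::H2B-Venus, Noto::H2B-mCherry and Foxa2::H2B-mTurquoise on bacterial artificial chromosomes. Notochord progenitors (NotoP) were sorted as Noto+/T+/Foxa2+ cells and mesodermal progenitors (MP) as T+/Noto-/Foxa2- cells from caudal ends at E8.5 and E9.5, and trunk notochord (trunk Noto) was sorted at both stages. The cultures came from another F1G4 line, a single clone with TRE::Foxa2-IRES-EGFP at Rosa26, T::H2B-mCherry-T2A-irTA and Noto::H2B-mTurquoise. All cultures received bFGF at 10 ng/ml and the Wnt pathway activator CHIR99021. NMPdiff, the neuromesodermal progenitor culture, was sorted on day 3 as T+/Noto- cells. NotoPdiff was sorted on day 4 as Noto+/T+ cells after doxycycline at 1 ng/ml, and MPdiff was sorted on day 4 as T+/Noto- cells without doxycycline, so that doxycycline, the induced Foxa2 transgene and the Noto gate separated the day 4 cultures. Cultured and embryonic libraries also differed in line, sequencing instrument and number of sorted cells, and these cannot be told apart from culture itself. No library of undifferentiated stem cells was part of the table, so the starting level of the panel was not measured.

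Between 7573 and 8246 genes were listed at 0 in the cultures, and between 10719 and 13945 in the embryonic libraries, with the most in MP E8.5, the embryonic library that the study lists with the fewest cells and reads. For both trunk Noto libraries the study lists fewer cells and reads than for NotoP of both stages and MP E9.5. A 0 in the embryo was therefore read with care. Of the genes at 5 FPKM or more in all 5 other embryonic libraries, the share listed at 0 in the remaining one was 1.52% for MP E8.5, 0.829% for trunk Noto E9.5 and at most 0.203% for the other 4. The markers behind the labels were checked as well. T was at 406 FPKM in NMPdiff, Noto was at 22.5 FPKM in NotoPdiff and 0.515 FPKM or less in the other cultures, and Tbx6, a gene of paraxial mesoderm, was at 33.2 FPKM in MPdiff. Tbx6 did not set mesodermal from notochord progenitors apart at E8.5, with 44 FPKM in NotoP and 39.3 FPKM in MP. At E9.5 it was higher in MP, at 67.2 FPKM against 27.8 FPKM in NotoP. It was at 21.3 FPKM in NotoPdiff and was listed at 0 in both trunk Noto libraries. Msgn1, of the same tissue, was higher in NMPdiff (52.7 FPKM) than in MPdiff (25.1 FPKM), and T was at 25.8 FPKM in MPdiff although this culture was sorted for a T reporter. Nkx1-2, a gene of neuromesodermal progenitors, was at 41.5 FPKM in NMPdiff, whereas Sox2, which such cells are defined by together with T, was at 1.07 FPKM there, below its 9.24 FPKM in NotoPdiff and 3.49 FPKM in MPdiff. The level of Foxa2 in cultures can hold reads of the transgene.

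Pluripotent cells of the early embryo and embryonic stem cells share a transcription factor network centred on Pou5f1 (Oct4), Sox2 and Nanog. A naive layer of the network, with Esrrb, Klf4, Tfcp2l1 and Zfp42 (Rex1), is lost first as cells pass to the epiblast state, whereas Pou5f1 persists in the epiblast and is shut off during gastrulation and early somite stages. Dnmt3b, a de novo DNA methyltransferase, and its catalytically inactive partner Dnmt3l are raised as cells leave the naive state, and Utf1 and Dppa5a are markers of undifferentiated cells.

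The sequences that bear on these genes come from their promoters and from T and Foxa2 binding in NotoPdiff cultures. RefSeq promoter sequences (GRCm38.p6) were matched for 9 of the 10 genes, and the 250 bases before the start site were searched on both strands for the octamer ATGCAAAT, the site bound by Oct4, and for ATGCAAA, which the octamer contains. The shorter form occurred in 4.12% of 32851 promoter sequences and the full octamer in 1.6%. Among the panel, the promoters of Nanog (chr6:122707239-122707488, plus strand) and Zfp42 (chr8:43307010-43307259, minus strand) held ATGCAAA, in capitals below and read as its complement, and that of Zfp42 held the full octamer. The match marks letters only, not a bound site.
Nanog promoter: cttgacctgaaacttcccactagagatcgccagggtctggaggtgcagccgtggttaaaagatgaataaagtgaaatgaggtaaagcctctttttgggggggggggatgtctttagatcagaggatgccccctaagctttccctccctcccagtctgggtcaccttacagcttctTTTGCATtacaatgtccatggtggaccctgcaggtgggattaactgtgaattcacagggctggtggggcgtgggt
Zfp42 promoter: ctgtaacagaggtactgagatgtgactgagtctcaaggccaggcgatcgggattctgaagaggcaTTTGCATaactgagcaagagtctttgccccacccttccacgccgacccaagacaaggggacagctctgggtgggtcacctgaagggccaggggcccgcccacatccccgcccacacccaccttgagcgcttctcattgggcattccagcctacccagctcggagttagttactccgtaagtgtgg

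The windows below are 201 bases around peak summits, on the plus strand of GRCm38, shown because they are the T peak assigned to Nanog, 1 of its 2 Foxa2 peaks, 1 of the 2 places near Klf4 where T and Foxa2 peaks overlapped and the place near Dnmt3b where they did. The Foxa2 window of Nanog and the window of Klf4 were picked because they held a forkhead motif, which the other Foxa2 window of Nanog and the other overlapping pair of Klf4 did not. Capitals mark TGTTTAC, a forkhead motif, or its complement. It was present in 13.8% of 22680 Foxa2 windows and 13% of 6871 T windows. None of the 4 windows held AGGTGT, the core of the T half-site AGGTGTGA that contains it, and the core was present in 17.6% of T windows.
Nanog T peak, chr6:122655286-122655486: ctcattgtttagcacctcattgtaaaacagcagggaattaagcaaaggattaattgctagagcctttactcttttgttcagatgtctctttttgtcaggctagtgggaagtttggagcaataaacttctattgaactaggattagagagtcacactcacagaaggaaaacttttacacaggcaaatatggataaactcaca
Nanog Foxa2 peak, chr6:122717578-122717778: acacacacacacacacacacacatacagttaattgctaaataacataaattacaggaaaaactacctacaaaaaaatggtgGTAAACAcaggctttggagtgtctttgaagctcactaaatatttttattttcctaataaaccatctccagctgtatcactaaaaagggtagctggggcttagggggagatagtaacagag
Klf4 T peak overlapping Foxa2, chr4:55921248-55921448: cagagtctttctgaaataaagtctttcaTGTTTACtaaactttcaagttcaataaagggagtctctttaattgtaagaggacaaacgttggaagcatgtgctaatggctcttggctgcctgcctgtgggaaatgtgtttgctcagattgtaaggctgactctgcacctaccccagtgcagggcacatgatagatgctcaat
Dnmt3b T peak overlapping Foxa2, chr2:153689239-153689439: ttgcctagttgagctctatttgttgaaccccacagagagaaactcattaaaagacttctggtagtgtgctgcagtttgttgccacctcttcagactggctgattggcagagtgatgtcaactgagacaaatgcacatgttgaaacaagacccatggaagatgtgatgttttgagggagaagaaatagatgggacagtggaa

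Most of the pluripotency genes stood highest on day 3 of culture. Of the 10, 5 were at least 3-fold lower in NotoPdiff than in NMPdiff (0.796% of all genes) and 4 in MPdiff (1.48%). Of the 10 genes, 8 had their highest level in NMPdiff, against 11.6% of all genes in the table. The exceptions were Klf4 and Tfcp2l1, which were highest in trunk Noto. At 1 FPKM or more, 8 of the genes were present in NMPdiff, 4 in each day 4 culture, 3 each in NotoP E8.5 and trunk Noto of both stages, 2 each in NotoP E9.5 and MP E9.5 and 1 in MP E8.5. Over all genes, between 39.7% and 49.5% reached 1 FPKM in each library, so NMPdiff alone held a larger share of the panel than of all genes. Nanog, Utf1, Dppa5a and Dnmt3l were listed at 0 in all 6 embryonic libraries, and Pou5f1, Zfp42 and Esrrb in 5 of the 6. Esrrb and Dnmt3l were under 1 FPKM in all 9 libraries, so their 0 values do not set the embryo apart from culture. A 0 was common over the whole table, with 10719 to 13945 of 23983 genes at 0 in each embryonic library. The share of all genes at 0 in 5 or 6 of them was not counted.

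**Figure D1:**
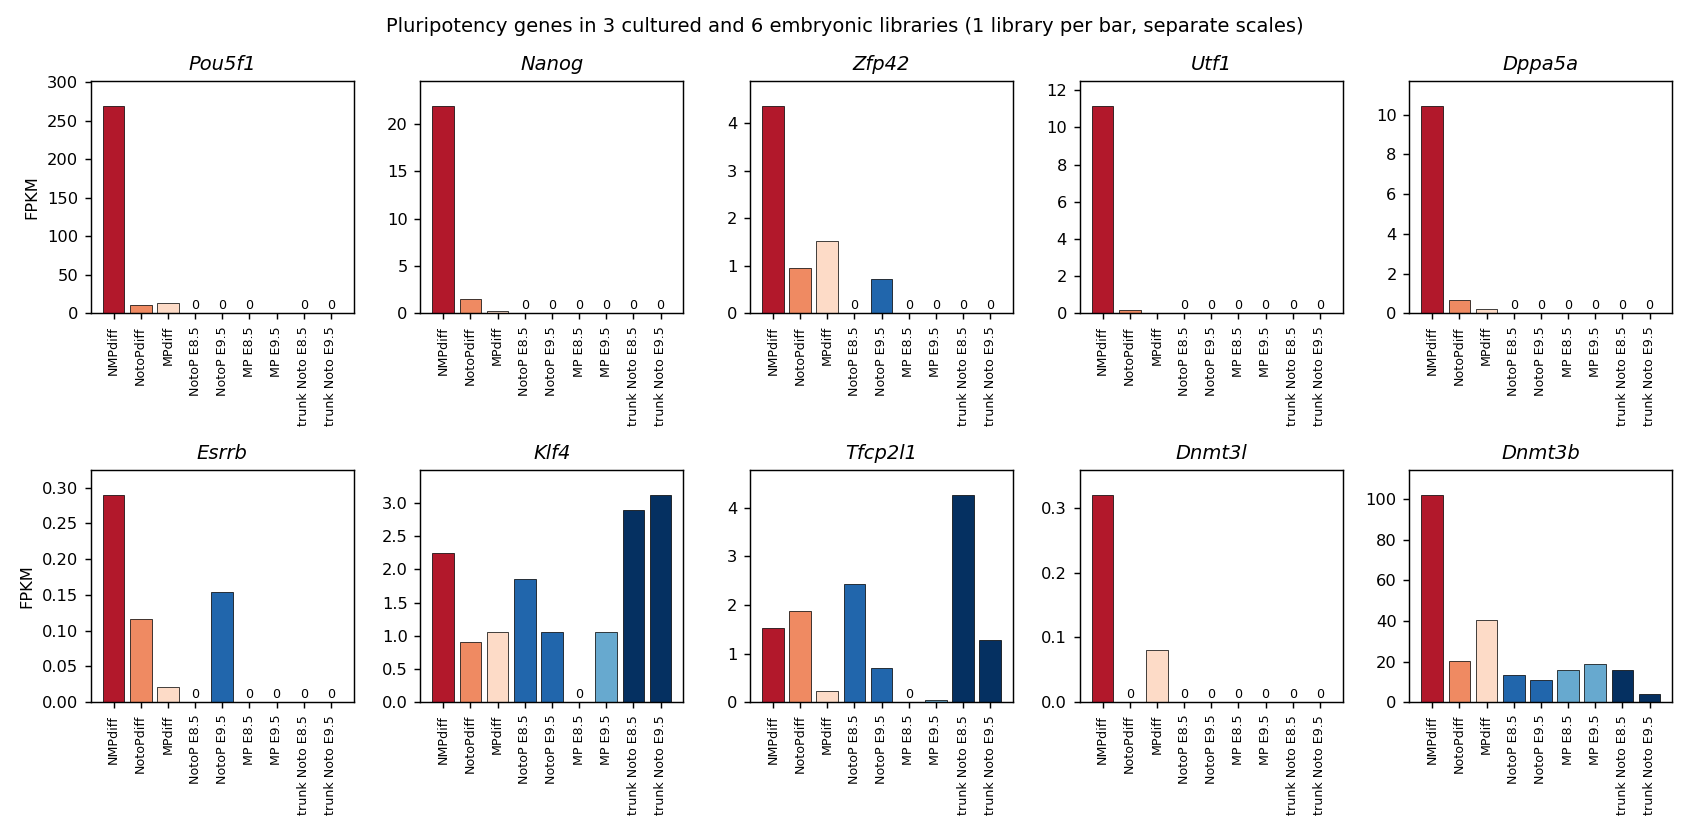
FPKM of each of the 10 genes (vertical axis, a separate linear scale per gene) in the 3 cultures (red tones) and 6 embryonic libraries (blue tones), with 1 library per bar and 0 printed where a gene was listed at 0. The NMPdiff bar is the tallest for 8 genes, Klf4 and Tfcp2l1 are tallest in trunk Noto, and Dnmt3b is above 0 in all 9 libraries.

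Pou5f1, the POU-domain factor at the centre of the network, lies on chromosome 17 (chr17:35506018-35510772, plus strand). It was at 269 FPKM in NMPdiff, 10.7 FPKM in NotoPdiff and 13.1 FPKM in MPdiff. In the embryo it was at 0.923 FPKM in MP E9.5 and was listed at 0 in NotoP E8.5, NotoP E9.5, MP E8.5 and both trunk Noto libraries. All 3 cultures were thus above all 6 embryonic libraries, and the level on day 3 was 25.1-fold that of NotoPdiff and 20.5-fold that of MPdiff. Both day 4 cultures had similar levels, 1.22-fold apart. Between 8 and 16 FPKM in both day 4 cultures there were 1552 genes, and 5 of them (0.322%) were listed at 0 in at least 5 embryonic libraries. Besides Pou5f1 these were the small nucleolar RNA genes Snord110, Snord47, Snord92 and Snord95. Both the band and the limit of 5 libraries were set around Pou5f1 after its values were seen. The share is thus a description and not a test of its 0 values.

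Nanog, a homeodomain factor of the same core (chr6:122707489-122714633, plus strand), was at 21.8 FPKM in NMPdiff, 1.54 FPKM in NotoPdiff and 0.216 FPKM in MPdiff, and was listed at 0 in all 6 embryonic libraries. NMPdiff was 14.2-fold above NotoPdiff. Between the day 4 cultures Nanog was higher in NotoPdiff, by 1.06 on the log2(FPKM + 1) scale, the reverse of Pou5f1, at which MPdiff was slightly higher.

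Utf1, a chromatin-associated marker of undifferentiated cells (chr7:139943789-139945112, plus strand), was close to the floor of the table by day 4. It was at 11.2 FPKM in NMPdiff, 0.21 FPKM in NotoPdiff and 0.0375 FPKM in MPdiff, and was listed at 0 in all embryonic libraries. Dppa5a, an RNA-binding protein of early embryos and germ cells (chr9:78367052-78368177, minus strand), was at 10.4 FPKM in NMPdiff, 0.686 FPKM in NotoPdiff and 0.204 FPKM in MPdiff. It too was listed at 0 in all embryonic libraries. Between 10 and 25 FPKM in NMPdiff, a band chosen after Nanog, Utf1 and Dppa5a had been seen, there were 3032 genes, and 16 of them (0.528%) were listed at 0 in all 6 embryonic libraries. These 3 were among the 16, as were Gsc, the homeobox gene of the organizer, at 11.2 FPKM in NMPdiff, and Olig1 at 10.7 FPKM. Because the band was set around Nanog, Utf1 and Dppa5a, the share is not a test of their 0 values.

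Zfp42, the zinc finger gene known as Rex1 (chr8:43295063-43306980, minus strand), had a flatter course. It was at 4.36 FPKM in NMPdiff, 0.946 FPKM in NotoPdiff and 1.52 FPKM in MPdiff. In the embryo it was at 0.715 FPKM in NotoP E9.5 and was listed at 0 in the other 5 libraries. The lowest culture exceeded the highest embryonic library by only 0.18 on the log2(FPKM + 1) scale.

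Of the naive-state factors, Esrrb, an orphan nuclear receptor (chr12:86361117-86521628, plus strand), was under 1 FPKM everywhere. It was at 0.29 FPKM in NMPdiff, 0.116 FPKM in NotoPdiff, 0.0207 FPKM in MPdiff and 0.153 FPKM in NotoP E9.5, and was listed at 0 in the other 5 embryonic libraries. Cultures and embryo overlapped for this gene.

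Klf4, a Krüppel-like factor also used in reprogramming and expressed in many epithelia (chr4:55527143-55532466, minus strand), did not separate cultures from embryo. It was at 2.25 FPKM in NMPdiff, 0.912 FPKM in NotoPdiff and 1.06 FPKM in MPdiff. In the embryo it was at 1.86 FPKM in NotoP E8.5, 1.06 FPKM in NotoP E9.5, 1.05 FPKM in MP E9.5, 2.89 FPKM in trunk Noto E8.5 and 3.12 FPKM in trunk Noto E9.5, and was listed at 0 in MP E8.5. Both trunk Noto libraries were above every culture.

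Tfcp2l1, a Grainyhead-family factor (chr1:118627945-118685168, plus strand), was higher in the notochord libraries than in the MP libraries, at under 5 FPKM throughout. It was at 1.52 FPKM in NMPdiff, 1.88 FPKM in NotoPdiff and 0.22 FPKM in MPdiff. In the embryo it was at 2.44 FPKM in NotoP E8.5, 0.695 FPKM in NotoP E9.5, 4.27 FPKM in trunk Noto E8.5, 1.28 FPKM in trunk Noto E9.5 and 0.0493 FPKM in MP E9.5, and was listed at 0 in MP E8.5. All 5 notochord libraries, cultured and embryonic, were therefore above all 3 MP libraries, with NotoPdiff 1.24 above MPdiff on the log2(FPKM + 1) scale. NMPdiff, sorted as T+/Noto- cells, was however above NotoP E9.5 and trunk Noto E9.5. MP E8.5 was the library with the most genes listed at 0. Extraembryonic endoderm markers differed among the libraries as well: their 8 genes summed to 71.9 and 161 FPKM in trunk Noto E8.5 and E9.5, against 23.2 and 35.9 FPKM in NotoP E8.5 and E9.5, 148 and 63.9 FPKM in MP E8.5 and E9.5, and 10.2 to 20.8 FPKM in the cultures. Lama1 alone made up most of the sums of NotoP and MP E9.5, at 19.3 and 35.9 FPKM in NotoP E8.5 and E9.5 and 62.6 FPKM in MP E9.5. It was at 62.4 FPKM in MP E8.5, and at 4.16 and 18.5 FPKM in trunk Noto E8.5 and E9.5. The fibroblast list of 8 genes was highest in trunk Noto, at 44 and 36.6 FPKM, against at most 12.7 FPKM in every other library. The part of such cells in the Klf4 and Tfcp2l1 levels was not tested.

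Dnmt3l (chr10:78041947-78063622, plus strand), the cofactor of de novo methylation, was at 0.321 FPKM in NMPdiff and 0.0802 FPKM in MPdiff, and was listed at 0 in NotoPdiff and in all 6 embryonic libraries. Like Esrrb it never reached 1 FPKM. Dnmt3b (chr2:153649450-153687730, plus strand) was the other extreme and the single gene of the 10 with a level over 0 in every library. It was at 102 FPKM in NMPdiff, 20.2 FPKM in NotoPdiff and 40.4 FPKM in MPdiff. In the embryo it was at 13.3 FPKM in NotoP E8.5, 11.1 FPKM in NotoP E9.5, 16 FPKM in MP E8.5, 18.7 FPKM in MP E9.5, 15.6 FPKM in trunk Noto E8.5 and 4.18 FPKM in trunk Noto E9.5. Cultures and embryo did not overlap, although NotoPdiff stood only slightly above MP E9.5. MP exceeded NotoP in the embryo at both stages and MPdiff exceeded NotoPdiff 2-fold in culture. The lowest level of all was in trunk Noto E9.5, where stage and the lower input of that library cannot be told apart.

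The levels of the panel in the cultures were next set against those in the embryonic libraries. Without a library of undifferentiated stem cells, this does not measure how much of a stem cell programme was retained. Pou5f1, Nanog, Zfp42, Utf1, Dppa5a and Dnmt3b, 6 of the 10 genes, were higher in all 3 cultures than in all 6 embryonic libraries, against 5.87% of all genes. For Nanog, Utf1 and Dppa5a this rests on 0.216, 0.0375 and 0.204 FPKM in MPdiff over 0 in the embryo. No gene of the panel was lower in all 3 cultures, where the share over all genes was 1.55%. When the gap had to reach 2-fold after adding 1 FPKM, Pou5f1 alone remained, against 0.413% of all genes. Among 15 housekeeping genes, read in the same way, 4 were higher and 2 lower in all cultures.

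For matched cell types, a gene was counted when its FPKM + 1 was at least 3-fold apart. Pou5f1 was the single gene of the panel counted as higher in NotoPdiff than in NotoP of both stages (1.17% of all genes) and the single one higher in MPdiff than in MP of both stages (1.01%). Its differences from NotoP were 3.55 on the log2(FPKM + 1) scale at each stage, and its differences from MP were 3.82 at E8.5 and 2.88 at E9.5. For Dnmt3b, NotoPdiff was 1.51-fold NotoP E8.5 and 1.81-fold NotoP E9.5, and MPdiff was 2.52-fold MP E8.5 and 2.16-fold MP E9.5. Nanog exceeded NotoP by 1.35 on the log2(FPKM + 1) scale in NotoPdiff, under the 3-fold limit. The smaller pseudocount of 0.1 FPKM raised both counts to 4, while the shares of all genes rose to 7.27% and 7.31%.

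Most of the panel was lower on day 4 than on day 3. At least 3-fold lower in NotoPdiff than in NMPdiff were 5 genes, Pou5f1, Nanog, Utf1, Dppa5a and Dnmt3b, against 0.796% of all genes. At least 3-fold lower in MPdiff were 4 of them, all but Dnmt3b, against 1.48% of all genes. The median difference over the 10 genes was -1.87 for NotoPdiff and -1.20 for MPdiff on the log2(FPKM + 1) scale, whereas the median over all genes was 0 in both comparisons. The single differences from NMPdiff were -4.53 and -4.26 for Pou5f1, -3.17 and -4.23 for Nanog, -3.33 and -3.55 for Utf1 and -2.76 and -3.25 for Dppa5a, in NotoPdiff and MPdiff in that order. Those of Zfp42 were -1.46 and -1.09, and those of Dnmt3b were -2.29 and -1.32. Tfcp2l1 was the one gene slightly higher in NotoPdiff than in NMPdiff, by 0.19. Day, CHIR99021 exposure and, for NotoPdiff, doxycycline and the Noto gate differed together in these comparisons and cannot be told apart.

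**Figure D2:**
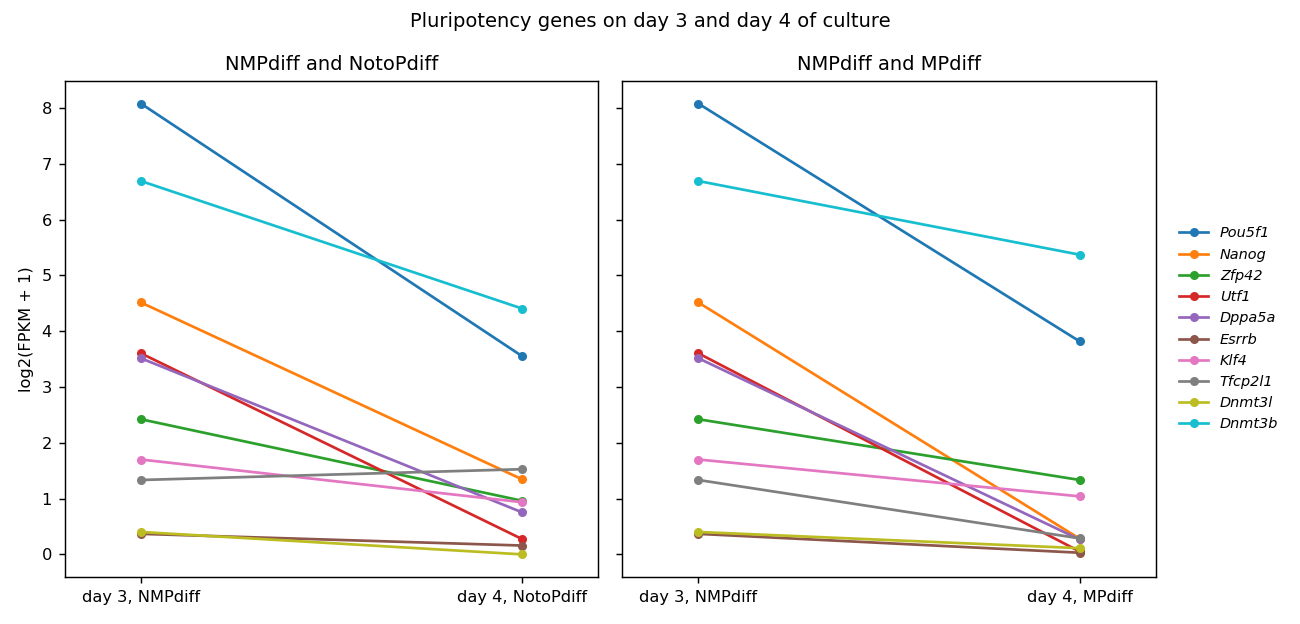
Level of each gene as log2(FPKM + 1) on day 3 (NMPdiff) and day 4, in NotoPdiff (left) and MPdiff (right), with 1 library per point and 1 line per gene. The changes of Pou5f1 are -4.53 and -4.26, Dnmt3b is the highest gene on day 4, and Tfcp2l1 is flat in NotoPdiff and lower in MPdiff.

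No gene of the panel was 3-fold lower in NotoPdiff than in MPdiff, against 0.442% of all genes. The largest differences between the day 4 cultures were Tfcp2l1 at 1.24 and Nanog at 1.06, both higher in NotoPdiff, and Dnmt3b at -0.97, lower there, on the log2(FPKM + 1) scale.

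Other genes of the pluripotent state were read beside the panel from further lists. These lists were chosen with earlier results of these data known, so their counts are no independent check. Of 14 further naive genes, 3 were at least 3-fold lower in each day 4 culture than in NMPdiff. Over all genes the shares were 0.796% for NotoPdiff and 1.48% for MPdiff. In NMPdiff 6 of the 14 were highest, against 11.6% of all genes. Of these 6, Nr0b1, Gdf3 and Dppa2 were low even there, at 0.0799, 1.04 and 1.51 FPKM. Klf5, a Krüppel-like factor, was at 54.9 FPKM in NMPdiff, 12.5 FPKM in NotoPdiff and 10.4 FPKM in MPdiff, but also at 15.9 FPKM in NotoP E8.5. Dppa4 was at 5.1 FPKM in NMPdiff and listed at 0 in all 6 embryonic libraries. Tbx3 went the other way, with 9.1 FPKM in MPdiff and 0.0463 FPKM in NMPdiff.

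Of 10 core or shared genes, 2 were at least 3-fold lower in both day 4 cultures, where the shares of all genes were 0.796% for NotoPdiff and 1.48% for MPdiff. Tdgf1, the Nodal co-receptor Cripto, was at 121 FPKM in NMPdiff, 2.6 FPKM in NotoPdiff and 2.46 FPKM in MPdiff, and was listed at 0 in all embryonic libraries, a course close to that of Pou5f1. L1td1 was at 87.2 FPKM in NMPdiff, 2.55 FPKM in NotoPdiff and 1.68 FPKM in MPdiff. By contrast Sall4 ranged from 25.9 to 74.3 FPKM and Lin28a from 33.5 to 181 FPKM over the 9 libraries, with their highest values in MPdiff, so these general stem cell genes did not follow Pou5f1.

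Of 10 formative or primed epiblast genes, 4 were at least 3-fold lower in NotoPdiff than in NMPdiff (0.796% of all genes) and 5 in MPdiff (1.48%). Fgf5, an epiblast marker, was at 60.2 FPKM in NMPdiff, 7.77 FPKM in NotoPdiff and 0.76 FPKM in MPdiff. Otx2 was at 13.7 FPKM in NMPdiff and at 0.742 and 0.701 FPKM in NotoPdiff and MPdiff. Of the 10, 4 were highest in NMPdiff, against 11.6% of all genes. Nodal, a signal that maintains the epiblast and acts around the node, was at 18.1 FPKM in NMPdiff and 24.5 FPKM in NotoPdiff, against 1.64 FPKM in MPdiff.

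Of 8 other genes of DNA methylation, 0 differed 3-fold between NMPdiff and either day 4 culture, and such differences were rare over all genes too. Tet2, which oxidises methylated cytosine, was at 2.67 FPKM in NMPdiff and 6.2 FPKM in NotoPdiff, and Zfp57, which protects imprinted methylation, was at 28.7 and 16.5 FPKM. Dnmt1, the maintenance methyltransferase, ranged from 53.1 to 87.3 FPKM over the 9 libraries, and Dnmt3a, the other de novo enzyme, from 11.8 to 28.6 FPKM with 12.6 FPKM in NMPdiff. Dnmt3b was thus above Dnmt3a in NMPdiff, and in trunk Noto E9.5 it was at 4.18 FPKM against 21.6 FPKM of Dnmt3a.

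Genes of the panel are also used by germ cells and other early lineages, so their markers were read too. Germ cell markers, 10 genes, summed to 61 FPKM in NMPdiff, 35.2 FPKM in NotoPdiff and 23.4 FPKM in MPdiff, and to between 4.87 and 47.2 FPKM in the embryo. Most of that sum was Ifitm3 and Kit, whereas Dppa3 was at 0.613, 0.298 and 0 FPKM in the cultures in the same order and Dazl at 0.0491 FPKM or less. Nanos3 was listed at 0 in NMPdiff and NotoPdiff and was at 0.834 FPKM in MPdiff. Ddx4 was at 2.73 FPKM and Tfap2c at 2.07 FPKM in NMPdiff. The part of such cells in the panel's levels was not tested. Of 6 genes of the two-cell-like state, none reached 1 FPKM in any library. Feeder cells had been removed by plating, and the 8 fibroblast genes summed to between 3.39 and 7.9 FPKM in the cultures. Single libraries cannot tell a low level in every cell from a high level in few cells.

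**Figure D3:**
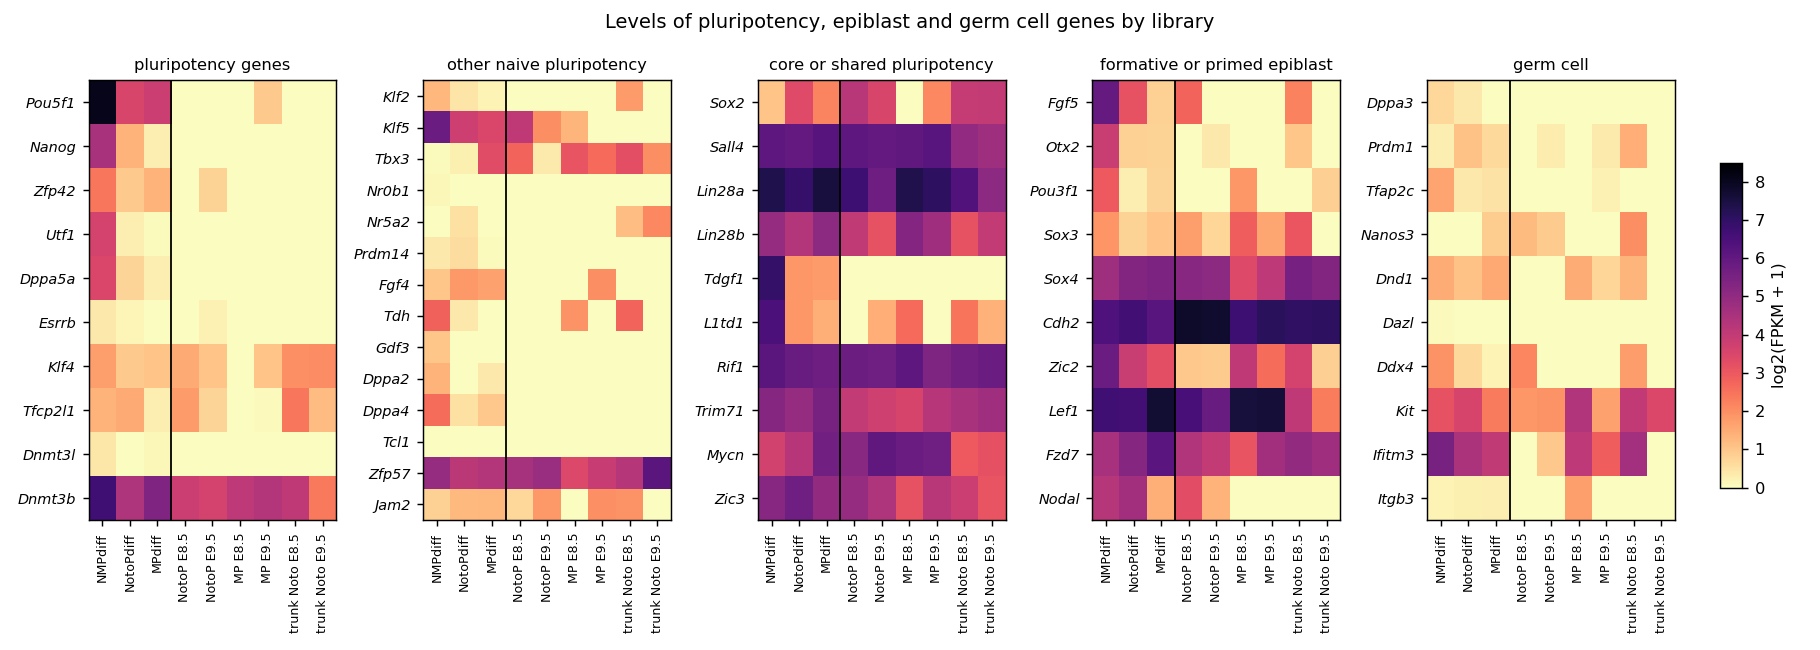
Levels as log2(FPKM + 1) (colour) of the 10 pluripotency genes and of 4 further gene lists (rows) in the 9 libraries (columns), with cultures left of the black line and 1 library per column. Nanog, Utf1, Dppa5a and Tdgf1 have a high NMPdiff column and embryonic columns at 0, Pou5f1 has 1 faint embryonic column at 0.923 FPKM in MP E9.5, while Sall4 and Lin28a are high throughout.

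The genes whose pattern was most like Pou5f1 were ranked by Pearson correlation of log2(FPKM + 1) over the 9 libraries, among 10937 genes that reached 5 FPKM. The first 5 were Gca (r = 0.992), Mir1949 (r = 0.986), Eomes (r = 0.985), Tmem145 (r = 0.982) and Snord11 (r = 0.981). Eomes, the T-box gene of the primitive streak, was at 54.1 FPKM in NMPdiff, 2.94 FPKM in NotoPdiff and 5.8 FPKM in MPdiff, and at most 0.709 FPKM in the embryo. For Dnmt3b they were Trp53 (r = 0.951), Pfn1 (r = 0.950), Rbpms2 (r = 0.949), Polr3g (r = 0.948) and Ncdn (r = 0.948), all above 0 in all 9 libraries. Within the panel, Nanog and Dppa5a were closest (r = 0.996), and Klf4 and Tfcp2l1 were closer to each other (r = 0.717) than to any other member. The 9 points share batches and the contrast of culture and embryo, so these values describe the libraries only.

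Position was examined next. Of 36 protein-coding genes within 100 kb of a panel gene, 6 had their highest level in NMPdiff, where the share of all genes was 11.6%. Psors1c2, 22.4 kb beyond Pou5f1, was at 21.9 FPKM in NMPdiff, 1.73 FPKM in NotoPdiff and 0.206 FPKM in MPdiff and was listed at 0 in all embryonic libraries. Tcf19, only 1.96 kb from Pou5f1, was at 4.68, 2.5 and 3.33 FPKM in the cultures in that order and reached 17.7 FPKM in MP E8.5. Near Nanog, Dppa3 and Gdf3 were at 0.613 and 1.04 FPKM in NMPdiff and at 0 in the embryo, and Slc2a3, a glucose transporter 13.2 kb away, was at 32.6 FPKM in NMPdiff and between 66 and 249 FPKM in the embryo.

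T and Foxa2 peaks, called from bulk NotoPdiff-enriched cultures with 1 library per factor, were assigned to a gene when the summit lay between the neighbouring protein-coding genes. A T peak lay in the interval of 5 of the 10 genes (29.2% of 19654 protein-coding genes of the table), a Foxa2 peak in that of 7 (47.8%), and either in that of 7 (54.5%). The median interval was 80.7 kb for the panel and 75.4 kb for all genes. The longest intervals were those of Klf4, Esrrb, Zfp42 and Tfcp2l1, at 1348, 387, 326 and 221 kb. Within 50 kb of the start site, a peak of either factor lay near 5 of the 10 genes, against 62.5% of all. T peaks overlapping a Foxa2 peak lay in the intervals of 2 genes, Klf4 and Dnmt3b (8.22% of all). No peak of either factor lay in the intervals of Utf1, Dppa5a and Dnmt3l.

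Of the T peaks near the panel, that of Nanog had the highest fold enrichment, at 16.5 over background, 52.1 kb upstream of the start site. The median T peak had 7.45. Nanog also had Foxa2 peaks 3.31 kb upstream and 10.2 kb downstream of its start, at 3.5 and 6.31, both below the median of Foxa2 peaks, 7.19. Pou5f1 had 1 Foxa2 peak, 20.2 kb upstream, at 7.58, and no T peak.

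At Zfp42 a T peak lay in an intron, 6.79 kb past the start site, at 7.71, and of 4 Foxa2 peaks the strongest reached 17.6 at 87.2 kb downstream. At Dnmt3b the T peak at 7.84 and the Foxa2 peak at 9.07 overlapped 39.9 and 39.8 kb past the start site, just beyond the end of the gene and outside any annotated gene. Klf4 lies in a 1348 kb interval and had 3 T and 12 Foxa2 peaks, with overlapping pairs 249 and 389 kb upstream, the latter the one printed above. Tfcp2l1 had 4 Foxa2 peaks between 128 and 195 kb downstream and no T peak, and Esrrb had 1 Foxa2 peak in an intron and 2 T peaks 252 and 298 kb past its start. Of these genes only Tfcp2l1 was higher in NotoPdiff than in NMPdiff, and a link to its peaks was not tested. The windows of its 4 peaks were rich in CA or TG repeats and held no TGTTTAC. The window of the strongest Foxa2 peak of Zfp42 held no TGTTTAC either.

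**Figure D4:**
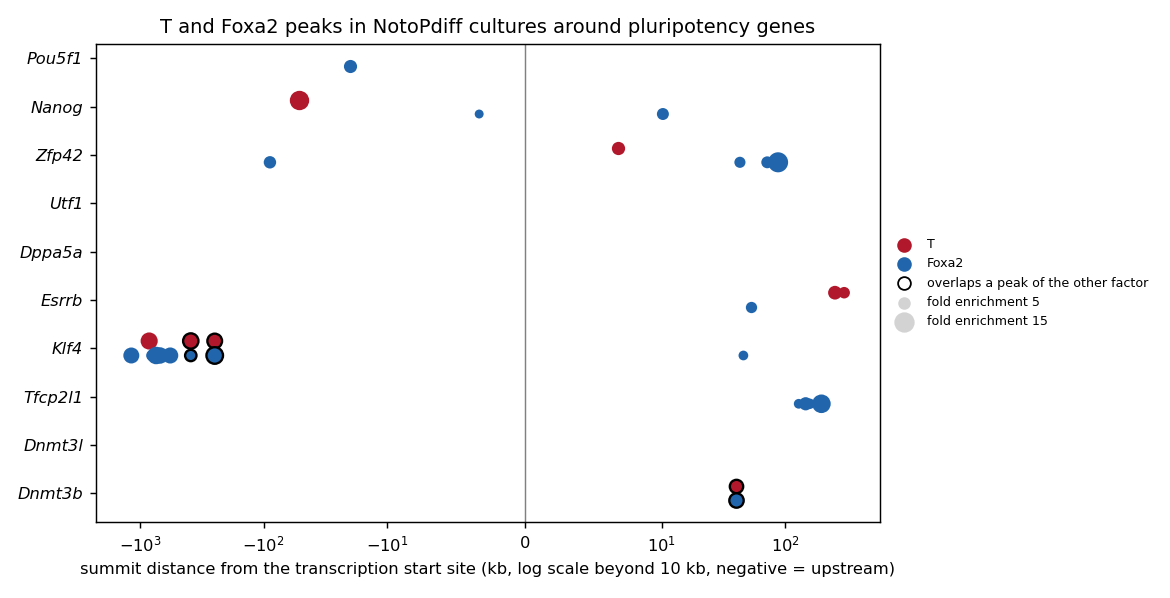
Distance of each T (red) and Foxa2 (blue) peak summit from the start site of the gene in whose interval it lies (horizontal axis in kb, linear within 10 kb and logarithmic beyond, negative upstream), with dot area for fold enrichment and a black outline where a peak of the other factor overlaps. Outlined pairs are seen at Klf4 and Dnmt3b, and Utf1, Dppa5a and Dnmt3l have no peak.

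Sequence shared with other genes limits some of these values. At 95% identity over 100 bases or more, the longest Nanog transcript matched 61 other annotated genes. These matches covered stretches of 106 to 245 of its 2211 bases, and the longest was to the pseudogene Nanog-ps1. Dppa5a matched 7 genes, of which 6 are annotated as pseudogenes, and Zfp42 matched 1 pseudogene. Reads from such shared stretches could be placed at another gene. Pou5f1 and Tfcp2l1 matched 1 overlapping noncoding gene each, and Utf1, Esrrb, Klf4, Dnmt3l and Dnmt3b matched none.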

How the data were processed

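Total RNA of sorted cells was sequenced from 9 of the 21 samples, 1 library per condition. The authors trimmed Ovation SoLo reads, aligned them with TopHat2 2.1.1 and Bowtie 1.2.2 to mm10, removed duplicates by molecular identifiers and computed the deposited FPKM values with Cufflinks 2.2.1 on RefSeq genes. For T and Foxa2 the authors aligned reads with Bowtie 1.3.1 and called peaks with MACS3 3.0.0b1 (q of 0.1). In the deposited lists each peak has a fold enrichment and a −log10 q-value. The other 10 samples were not used here.

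The panel and the gene lists were chosen with earlier results of these data known. Differences were taken as log2(FPKM + 1), which understates changes of low genes, and a 3-fold limit was used without a test because each condition had 1 library. All panel genes are named, and other genes are named as extremes of a list or where a result turns on them. Likeness was ranked among genes at 5 FPKM or more in a library. The 8 to 16 and 10 to 25 FPKM bands and the ATGCAAA and AGGTGT searches were added after values had been seen. Gene positions were from GENCODE vM21 and sequences from the RefSeq GRCm38 assembly, whose chromosome lengths hold all peaks on the chromosomes searched. Promoters came from RefSeq. Identity searches used BLAST 2.17.0. Calculations used Python 3.11.15, numpy 2.4.6 and pandas 2.3.3. The fold rule was tried on simulated data in which only genes well above the floor were changed. That trial does not cover low genes, which are most of the panel. FPKM carry no depth and the read totals in the study's supplement were not used here, so no counting interval was given. Alternatives were another pseudocount, fold, minimum, scaling, peak cutoff or distance, and libraries left out.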

Additional observations from a re-analysis of the deposited data

Results flagged for a closer look

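Some changes ran in opposite directions between cell types under the same contrast. Each rests on 1 library per condition and the difference was not tested. From E8.5 to E9.5, on the log2(FPKM + 1) scale, Klf4 changed by -0.47 in NotoP, 1.04 in MP and 0.084 in trunk Noto, where the MP value starts from a 0 in MP E8.5. Tfcp2l1 changed by -1.02 in NotoP, 0.069 in MP and -1.21 in trunk Noto. Dnmt3b changed by -0.24 in NotoP, 0.21 in MP and -1.68 in trunk Noto. From day 3 to day 4 of culture, Tfcp2l1 changed by 0.19 in NotoPdiff and -1.05 in MPdiff.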

How the results depend on the processing

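With a pseudocount of 0.1 FPKM, 4 genes of the panel in place of 1 were 3-fold higher in NotoPdiff than in both NotoP libraries (7.27% of all genes). The count for MPdiff against both MP libraries was also 4 in place of 1 (7.31%). With a 2-fold limit these counts were 2 (3.62% of all genes) and 3 (3.34%). At that limit 7 genes in place of 4 were lower in MPdiff than in NMPdiff (3.84% of all genes). With a required 2-fold gap, 1 gene in place of 6 was higher in all cultures than in all embryonic libraries (0.413% of all genes). At a minimum of 5 FPKM, 5 genes were present in NMPdiff, 2 in each day 4 culture, 1 each in NotoP of both stages, MP E9.5 and trunk Noto E8.5, and 0 in trunk Noto E9.5. Over all genes, between 29.8% and 34.8% reached 5 FPKM in each library. At 0.5 FPKM, 7 were present in NotoPdiff (54.4% of all genes) and 4 in NotoP E9.5 (50.3%). Rescaling the libraries by the median of ratios and leaving out MP E8.5, trunk Noto or NMPdiff kept each count it was applied to within 1.5 times. A change of pseudocount cannot turn the sign of a difference, so signs were no check there. Under rescaling no difference between cultures changed sign for the 8 genes that reached 1 FPKM. The scale factors were small, at 0.0293, 0.007 and 0.0244 on the log2 scale for NMPdiff, NotoPdiff and MPdiff. No paired analysis was possible because each condition had 1 library.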
